A study of Mus musculus with 32 samples.

Results

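The writers of DNA methylation were followed at the RNA level while mouse embryonic stem cells left the naive pluripotent state. They are 5 genes of the 31053 in the count files, taken by name and not by their values. All 5 were among the 12556 genes with enough counts to be tested. Dnmt3a, Dnmt3b and Dnmt3l make up the de novo group. Dnmt1 and Uhrf1 make up the maintenance group. After withdrawal the de novo genes passed through a wave. By the time of the highest group mean the order was Dnmt3l, Dnmt3a, Dnmt3b in both courses. By group means Dnmt3a and Dnmt3b reached 50% of their peaks at the same sampled time in each course. In replicate 2 alone Dnmt3a did so earlier than Dnmt3b in 2i. The maintenance genes stayed within a 2.40-fold range (Dnmt1) and a 3.47-fold range (Uhrf1) over 31 libraries.

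All libraries came from E14 cells, a laboratory line of mouse embryonic stem cells, grown in serum-free N2B27 medium. One set of cells had been kept in 2iL and the other in 2i before both media were exchanged for plain N2B27, so that every later group shares this exchange and the time in culture that goes with it. 2i is a pair of kinase inhibitors, 3 uM CHIR99021 against GSK3 and 1 uM PD0325901 against MEK, and 2iL is 2i plus the cytokine LIF. Cells from 2iL were taken at 0, 24, 36, 48, 60, 72, 84 and 96 h after withdrawal and cells from 2i at 0, 12, 24, 36, 48, 60, 72 and 84 h, with 2 libraries per group, 16 groups and 32 libraries. Counts come from 3' ends of poly(A) RNA and are given as CPM, counts per 1000000 counts of a library after TMM scaling (a library-size correction). DNA methylation itself was not measured.

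DNMT3A and DNMT3B are the enzymes that add methyl groups to CpG sites that carry none, and DNMT3L is a relative without catalytic activity that binds both enzymes and stimulates them. DNMT1 copies methylation onto the new strand after DNA replication, and UHRF1 recognises hemimethylated CpG sites and brings DNMT1 to them. Naive mouse embryonic stem cells in 2i are known for low DNA methylation, which is regained as they move towards the state of the post-implantation epiblast.

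On GRCm38 (mm10, GENCODE M21) Dnmt3a (ENSMUSG00000020661) lies on chromosome 12 from 3806007 to 3914443 and Dnmt3b (ENSMUSG00000027478) on chromosome 2 from 153649450 to 153687730. Dnmt3l (ENSMUSG00000000730) lies on chromosome 10 from 78041947 to 78063622 and Uhrf1 (ENSMUSG00000001228) on chromosome 17 from 56303321 to 56323486, all 4 on the plus strand. Dnmt1 (ENSMUSG00000004099) lies on the minus strand of chromosome 9 from 20907209 to 20959888. Exons of Dnmt3l share 67 bases with those of Aire on the other strand, and exons of Dnmt3a share 133 bases with those of the antisense gene Dnmt3aos. The strand setting of the counting is not given in the sources used here, so reads from such overlaps cannot be assigned with certainty. Over all 31 libraries the partners had 313 counts (Aire) and 79 counts (Dnmt3aos), against 14892 for Dnmt3l and 23962 for Dnmt3a. At 72 and 84 h of 2i, however, Dnmt3l itself had only 22 and 9 counts over the libraries of the group. The overlap with Aire therefore cannot be set aside for those values.

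The promoters of the writers differ in CpG content, which is shown because the genes are themselves the makers of CpG methylation. RefSeq start sites on GRCm38.p6 gave 12 windows of 300 bases for the 5 genes, each from 250 bases before a start to 50 after it. The ratio of observed to expected CpG was 0.114 to 0.272 in the 3 windows of Dnmt3l, against a median of 0.384 over all 32851 windows of the mouse. It was 0.694 in the window of Dnmt3b and 0.468 to 1.06 in the 3 windows of Dnmt3a. Among the maintenance genes it was 0.101 to 0.910 in the 3 windows of Dnmt1, which include the lowest of the 12, and 0.472 to 0.959 in the 2 windows of Uhrf1. The 250 bases before a start follow for Dnmt3l (chr10:78049592-78049841, plus strand, 4 CpG) and Dnmt3b (chr2:153649199-153649448, plus strand, 21 CpG), with each CpG in capitals.
Dnmt3l: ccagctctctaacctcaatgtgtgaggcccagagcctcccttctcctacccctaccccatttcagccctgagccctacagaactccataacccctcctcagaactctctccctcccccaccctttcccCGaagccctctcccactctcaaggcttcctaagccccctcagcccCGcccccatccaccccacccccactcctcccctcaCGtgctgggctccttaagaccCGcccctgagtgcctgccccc
Dnmt3b: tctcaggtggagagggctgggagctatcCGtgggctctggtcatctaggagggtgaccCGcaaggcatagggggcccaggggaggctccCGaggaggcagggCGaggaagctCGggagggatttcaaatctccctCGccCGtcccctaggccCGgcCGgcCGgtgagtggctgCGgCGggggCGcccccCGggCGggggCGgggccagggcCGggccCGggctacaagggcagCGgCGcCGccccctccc

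The maintenance genes, which move with DNA replication in many cell types, were searched for words bound by E2F factors, regulators of replication genes. The 4 words TTTCGCGC, TTTGGCGC, TTTCCCGC and TTTGCCGC were looked for on both strands. They occurred in 2 of the 5 windows of Dnmt1 and Uhrf1, 1 window of each gene, in 0 of the 7 windows of Dnmt3a, Dnmt3b and Dnmt3l, and in 2.27% of all windows. The CCAAT box (CCAAT) occurred in 4 of the 5 maintenance windows, 0 of the 7 de novo windows and 37.4% of all windows. Other words searched went the other way. The GC box (GGGCGG) occurred in 3 of the 5 maintenance windows, 6 of the 7 de novo windows and 35.7% of all windows. The E box (CACGTG) occurred in 0 of the 5, 2 of the 7 and 7.15%. Windows 1 and 2 of Dnmt3a overlap and are counted separately. The stretches of 30 bases around the E2F words, the word in capitals, lie on the minus strand at chr9:20952824-20952853 and chr9:20952574-20952603 for Dnmt1 and on the plus strand at chr17:56304117-56304146 for Uhrf1. The first of these holds the word TTTCGCGC on the strand opposite to the gene.
Dnmt1, before the start: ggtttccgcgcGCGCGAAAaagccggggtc
Dnmt1, after the start: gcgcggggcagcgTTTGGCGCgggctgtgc
Uhrf1, before the start: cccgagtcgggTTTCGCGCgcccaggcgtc
A word in a window is a match of letters and was not tested for binding.

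The 31 libraries used held 1122648 to 3438514 counts (median 1980949), so that a floor of 3 counts corresponds to 0.872 to 2.67 CPM. Floors and counting intervals cover counting error only. The library replicate 2 of 2iL 36 h held 7298 counts and was left out, so that 2iL 36 h rests on 1 library, whose spread is taken to be that of the other groups. The labels do not say whether replicates are separate cultures, so p-values measure the spread between libraries, which may be technical. Libraries replicate 1 of 2iL 48 h, replicate 2 of 2iL 84 h, replicate 1 of 2iL 96 h and replicate 2 of 2i 12 h were set apart from their partners in an earlier look at these data, and results that rest on them are given with and without them. The 10 most abundant genes took 35.5% and 43.5% of the counts in the 2i 12 h libraries, against 17.1% to 30.6% in the other libraries used. Of 5 stem cell markers (Pou5f1, Sox2, Nanog, Zfp42, Esrrb) 4 fell and 0 rose at 72 h of the 2iL course, and 5 fell at 72 h of the 2i course, where 14.1% of all tested genes fell in each course. Their summed level was 305 to 1130 CPM after 2iL withdrawal, against 1270 to 1418 CPM before it, and 210 to 1065 CPM after 2i withdrawal, against 1385 to 1463 CPM before it. The 6 primitive endoderm markers summed to at most 11.7 CPM, the 6 fibroblast markers to at most 28.9 CPM and the 6 2-cell-like markers to at most 10.3 CPM in any library. The 7 trophectoderm markers, which include Tfap2c, summed to 19.7 to 68.6 CPM after 2iL withdrawal, against 171 to 181 CPM before it, and to 20.7 to 91.8 CPM after 2i withdrawal, against 221 to 243 CPM before it. The part of these markers in the results was not tested. In bulk RNA a change in the share of a cell type and a change of RNA per cell cannot be told apart.

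Before withdrawal the de novo group was higher in 2i than in 2iL, and the maintenance group was not called. Of the 5 writers 3 were higher and 0 lower, where 8% of the tested genes differed, 3.75% higher and 4.24% lower. Dnmt3l was at 154 and 158 CPM in the 2i libraries, against 12.0 and 12.8 CPM in the 2iL libraries. Its log2 fold change was 3.64 ± 0.23 (SE; edgeR quasi-likelihood test, Benjamini-Hochberg adjusted p = 1.5e-12), a 12.5-fold difference. Dnmt3a was at 199 and 183 CPM in 2i, against 35.3 and 38.0 CPM in 2iL (2.38 ± 0.19, adjusted p = 1.7e-10). Dnmt3b was at 306 and 305 CPM in 2i, against 63.9 and 63.1 CPM in 2iL (2.26 ± 0.17, adjusted p = 7.4e-11). By these calls the starting point of the 2 courses differed in the de novo genes before any withdrawal. Dnmt1 was at 267 and 254 CPM in 2i, against 292 and 286 CPM in 2iL, with a log2 difference of -0.15 (95% interval -0.53 to 0.24, adjusted p = 0.76). Uhrf1 was at 123 and 109 CPM in 2i, against 181 and 152 CPM in 2iL (-0.52 ± 0.18, adjusted p = 0.076). The difference in Uhrf1 passed the threshold in a fit of the 4 libraries alone (adjusted p = 0.0024), without the 4 libraries that stand apart (0.0043) and when scaled to total counts (0.021).

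In the 2iL course all 3 de novo genes were higher than at 0 h at each of the 7 times. At 24, 36, 48, 60, 72, 84 and 96 h the number of the 5 writers called was 3, 3, 3, 3, 4, 4 and 5, beside 11.6%, 10.8%, 29%, 27.7%, 28.8%, 34.8% and 39.5% of the tested genes. Dnmt3l moved first. It was at 12.0 and 12.8 CPM at 0 h, 633 and 616 CPM at 24 h, 692 CPM in the only library at 36 h, and 522 and 538 CPM at 48 h. It then stood at 313 and 339 CPM at 60 h, 104 and 109.9 CPM at 72 h, 30.6 and 30.1 CPM at 84 h, and 15.5 and 28.7 CPM at 96 h. The libraries at 24 h thus already stood near the top of the wave, and those at 96 h were close to the start again. The log2 fold change over 0 h was 5.65 ± 0.23 at 24 h (adjusted p = 3.0e-17) and 5.79 ± 0.24 at 36 h. It was 0.89 ± 0.26 at 96 h (adjusted p = 0.0076), a call that was lost without replicate 2 of 2iL 96 h (0.32, adjusted p = 0.50) or without replicate 1 of 2iL 0 h (0.84, adjusted p = 0.056).

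Dnmt3a climbed more slowly. It was at 35.3 and 38.0 CPM at 0 h, 162 and 111 CPM at 24 h, 368 CPM at 36 h, and 724 and 760.2 CPM at 48 h. Later libraries were at 870.4 and 756 CPM at 60 h, 450.4 and 541 CPM at 72 h, 337 and 326 CPM at 84 h, and 164 and 177 CPM at 96 h. The log2 fold change over 0 h was 1.90 ± 0.20 at 24 h, 4.47 ± 0.20 at 60 h (adjusted p = 4.3e-17) and 2.22 ± 0.19 at 96 h. The libraries at 48 and 60 h overlapped, so the top of the wave is not placed more finely than these times. Dnmt3b was the last to reach its highest group mean. It was at 63.9 and 63.1 CPM at 0 h, 413 and 372 CPM at 24 h, 847 CPM at 36 h, and 1147 and 1418 CPM at 48 h. It then stood at 1947 and 1878 CPM at 60 h, 1957 and 2024 CPM at 72 h, 1582 and 1263 CPM at 84 h, and 498 and 698 CPM at 96 h. Its log2 fold change over 0 h was 4.97 ± 0.19 at 72 h (adjusted p = 1.1e-18) and still 3.24 ± 0.18 at 96 h (adjusted p = 5.0e-15).

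**Figure D1:**
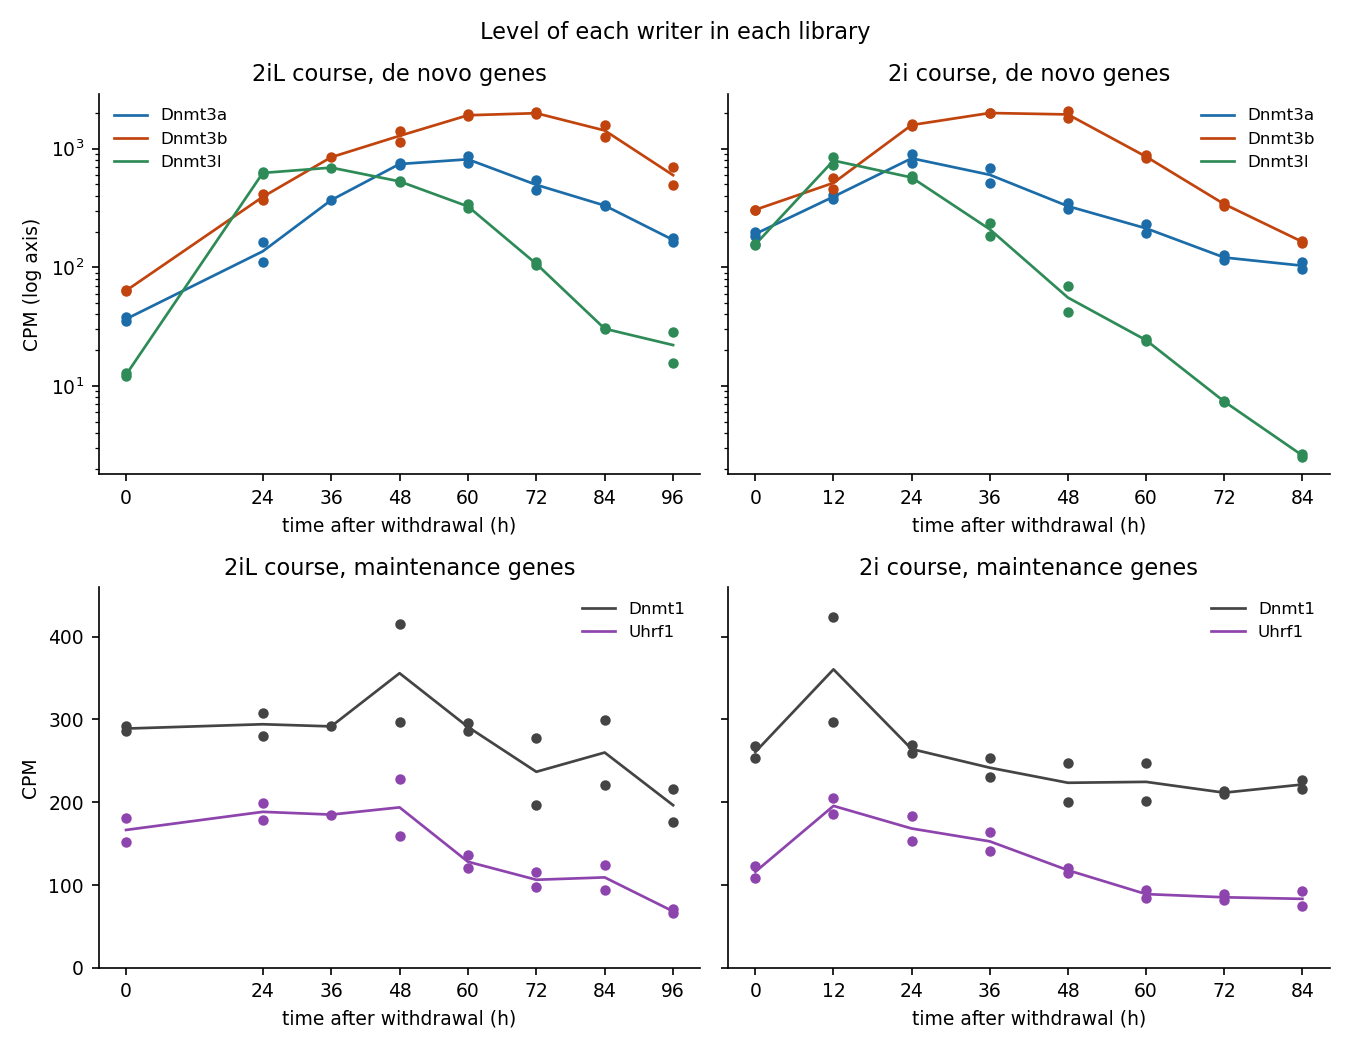
Level of each writer against time after withdrawal, in CPM (log axis in the upper row, linear axis from 0 in the lower row), for the 2iL course on the left and the 2i course on the right. Points are libraries and lines join group means (2 libraries, 1 at 2iL 36 h); Dnmt3l spans 2.52 to 858 CPM, while Dnmt1 stays between 176 and 424 CPM.

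In the 2i course the same genes rose and then ended below their start. At 12, 24, 36, 48, 60, 72 and 84 h the number of writers called was 4, 4, 2, 3, 2, 2 and 3, beside 10.8%, 17.3%, 17.5%, 20.2%, 24.1%, 28.2% and 33.2% of the tested genes. Dnmt3l was at 154 and 158 CPM at 0 h, 858 and 729 CPM at 12 h, 554 and 589 CPM at 24 h, 234 and 184 CPM at 36 h, and 68.9 and 42.1 CPM at 48 h. Later libraries were at 24.6 and 23.9 CPM at 60 h, 7.36 and 7.41 CPM at 72 h, and 2.52 and 2.67 CPM at 84 h. The last values rest on 4 and 5 counts. The log2 fold change over 0 h was 2.35 ± 0.18 at 12 h (adjusted p = 1.0e-10), and Dnmt3l was lower than at 0 h from 48 h (-1.51 ± 0.19) to 84 h (-5.87 ± 0.31, adjusted p = 2.0e-15). At 36 h it was not called (0.43 ± 0.18, adjusted p = 0.10), but it was called when the 2i libraries were fitted by themselves (adjusted p = 0.021) and without the libraries that stand apart (0.019).

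Dnmt3a in the 2i course was at 199 and 183 CPM at 0 h, 379.9 and 407 CPM at 12 h, 906 and 752 CPM at 24 h, 515 and 688 CPM at 36 h, and 309.9 and 345 CPM at 48 h. It then stood at 194 and 232 CPM at 60 h, 116 and 126 CPM at 72 h, and 96.2 and 110.1 CPM at 84 h. It was higher than at 0 h from 12 to 48 h, with 2.12 ± 0.17 at 24 h (adjusted p = 8.7e-11), and lower at 72 h (-0.66 ± 0.18, adjusted p = 0.0050) and 84 h (-0.89 ± 0.18). The call at 72 h was lost without replicate 1 of 2i 0 h (adjusted p = 0.062), without replicate 1 of 2i 72 h (0.066) and when scaled to total counts (-0.42, adjusted p = 0.067). Dnmt3b was at 306 and 305 CPM at 0 h, 569 and 459.9 CPM at 12 h, 1599.8 and 1565 CPM at 24 h, 2006 and 1989 CPM at 36 h, and 1801 and 2085 CPM at 48 h. Later libraries were at 833 and 879 CPM at 60 h, 332 and 349.9 CPM at 72 h, and 161 and 167 CPM at 84 h. The rise was 0.75 ± 0.16 at 12 h, where the call was lost without replicate 1 of 2i 12 h (0.60, adjusted p = 0.0501) and when scaled to total counts (0.44, adjusted p = 0.10), and 2.71 ± 0.17 at 36 h (adjusted p = 2.0e-13). Dnmt3b was lower than at 0 h only at 84 h among the 7 times (-0.90 ± 0.16, adjusted p = 7.1e-05).

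By highest group mean the order of the waves was the same in both courses, and that of 2i ran ahead. The step of Dnmt3b from the peak time of Dnmt3a to its own was not called in either course. It was 0.06 from 60 to 72 h of 2iL (adjusted p = 0.93) and 0.34 from 24 to 36 h of 2i (adjusted p = 0.47). The highest group mean of Dnmt3l fell at 36 h in the 2iL course (692 CPM, 1 library) and at 12 h in the 2i course (794 CPM). That of Dnmt3a fell at 60 h in 2iL (813 CPM) and at 24 h in 2i (829 CPM). That of Dnmt3b fell at 72 h in 2iL (1990.5 CPM) and at 36 h in 2i (1998 CPM). The peak heights of a gene in the 2 courses were thus close, although the starting levels were not: the peak was 55.8-fold the 0 h mean for Dnmt3l, 22.2-fold for Dnmt3a and 31.4-fold for Dnmt3b in 2iL, against 5.10-fold, 4.34-fold and 6.54-fold in 2i. The 2iL course has no library at 12 h, so the start of its waves is not resolved. In replicate 2 alone the peak of Dnmt3l was at 24 h and that of Dnmt3a at 48 h in 2iL, and that of Dnmt3b at 48 h in 2i, where the means at 36 and 48 h were 1998 and 1943 CPM.

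Measured by the first time at which a group mean reached 50% of the peak, Dnmt3l came first in both courses, at 24 h in 2iL and at 12 h in 2i. Dnmt3a and Dnmt3b followed at the same sampled time, 48 h in 2iL and 24 h in 2i. At 12 h of 2i, however, Dnmt3a stood at 47.5% of its peak, just under the cutoff, and Dnmt3b at 25.8%. In replicate 2 alone Dnmt3a reached 50% at 12 h of 2i, the same time as Dnmt3l, and Dnmt3b at 24 h. The genes parted again on the way down. The last time at or above 50% of the peak was 48 h for Dnmt3l, 72 h for Dnmt3a and 84 h for Dnmt3b in 2iL, and 24 h, 36 h and 48 h for the same genes in 2i. In replicate 2 alone, which has no library at 36 h of 2iL, that of Dnmt3l in 2iL was 60 h. At the last time of the course the mean of Dnmt3l stood at 3.19% of its peak in 2iL and at 0.327% in 2i. That of Dnmt3a stood at 20.9% in 2iL and 12.4% in 2i, and that of Dnmt3b at 30.03% in 2iL and 8.20% in 2i.

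Each time was also tested against the one before it. In 2i, from the step to 24 h to the step to 84 h, 2, 1, 2, 2, 3 and 1 of the 5 writers were called, beside 9.49%, 1.04%, 1.82%, 0.948%, 1.34% and 0.167% of the tested genes. In 2iL, from the step to 36 h to the step to 96 h, 2, 1, 1, 2, 1 and 3 were called, beside 0.183%, 0.876%, 1.11%, 1.8%, 0.112% and 4.33%. From 12 to 24 h Dnmt3a (1.08 ± 0.17) and Dnmt3b (1.62 ± 0.16) rose, 2 of 5 writers beside 9.49% of the tested genes. The change of Dnmt3l in this step was -0.48 ± 0.17 and was not called (adjusted p = 0.072). It stayed so in 8 of 12 alternatives. It was called lower by DESeq2 (0.041), with RLE size factors (0.049), with the 2i libraries fitted by themselves (0.0045) and without the libraries that stand apart (log2 -0.59). From 24 to 36 h Dnmt3l was the only writer called, lower by -1.45 ± 0.18 (adjusted p = 4.8e-05), beside 1.04% of the tested genes, and Dnmt3a (-0.46 ± 0.16, adjusted p = 0.24) was called as well without the libraries that stand apart (0.026). From 48 to 60 h Dnmt3b fell (-1.18 ± 0.16, adjusted p = 2.7e-05) and Dnmt3l fell (-1.17 ± 0.22), beside 0.948% of the tested genes. The second of these calls was lost without replicate 1 of 2i 48 h (adjusted p = 0.22), replicate 1 of 2i 60 h (0.095) or replicate 2 of 2i 60 h (0.078). In the 2iL course Dnmt3l fell from 60 to 72 h (-1.61 ± 0.18, adjusted p = 6.6e-06) and from 72 to 84 h (-1.81 ± 0.21, adjusted p = 1.4e-05). From 84 to 96 h Dnmt3b (-1.25 ± 0.16) and Dnmt3a (-0.96 ± 0.17) fell, beside 4.33% of the tested genes. Dnmt3l from 36 to 48 h of 2i (-1.93 ± 0.20, adjusted p = 7.7e-07) and Dnmt3b from 60 to 72 h of 2i (-1.33 ± 0.16, adjusted p = 3.6e-06) kept the call whichever library was left out. Dnmt3a from 24 to 36 h of 2iL (1.42 ± 0.20, adjusted p = 0.00031) kept it without either 24 h library. The only library at 36 h of 2iL could not be left out. Dnmt3a from 36 to 48 h of 2iL (1.01 ± 0.21, adjusted p = 0.011) rests on that library too. Its call was kept without either 48 h library and lost when the 2iL libraries were fitted by themselves (0.11). The remaining step calls were lost without single libraries. In 2i these were Dnmt3a to 48 h (lost without replicate 2 of 36 h or replicate 1 of 48 h), Dnmt3a to 72 h (replicate 2 of 60 h or either 72 h library), Dnmt3l to 72 h (either 72 h library) and Dnmt3b to 84 h (replicate 2 of 72 h or replicate 1 of 84 h). In 2iL they were Dnmt3b to 36 h (replicate 2 of 24 h), Dnmt3l to 60 h (replicate 1 of 48 h or either 60 h library), Dnmt3a to 72 h (either 60 h library or replicate 1 of 72 h) and Uhrf1 to 96 h (replicate 2 of 84 h or either 96 h library).

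**Figure D2:**
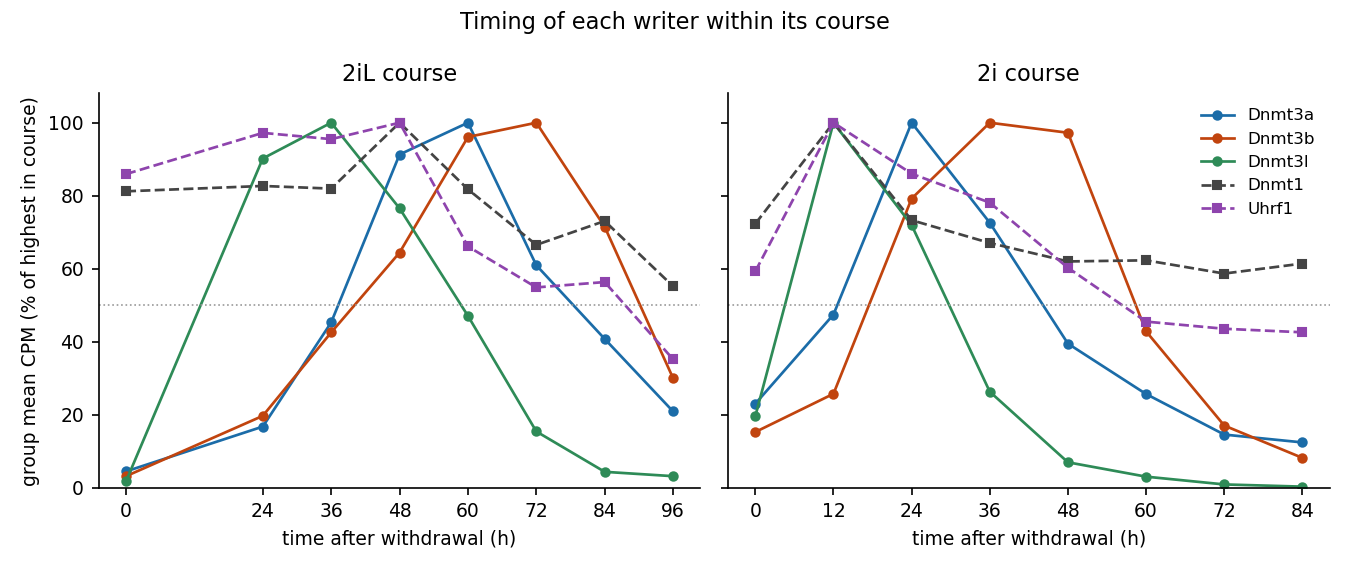
Group mean CPM of each writer as percent of its highest group mean in the course, against time after withdrawal, for the 2iL course on the left and the 2i course on the right; the dotted line marks 50%. In both panels Dnmt3l peaks first (36 h in 2iL, 12 h in 2i), Dnmt3a next (60 h and 24 h) and Dnmt3b last (72 h and 36 h), while Dnmt1 (dashed) stays above 50% throughout.

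The maintenance genes changed little beside these waves. In the 2iL course Dnmt1 was at 292 and 286 CPM at 0 h, 308 and 280.2 CPM at 24 h, 292 CPM at 36 h, and 415 and 297 CPM at 48 h. It then stood at 295 and 287 CPM at 60 h, 197 and 277 CPM at 72 h, 221 and 299 CPM at 84 h, and 217 and 176 CPM at 96 h. In the 2i course it was at 267 and 254 CPM at 0 h, 297 and 424 CPM at 12 h, 259 and 269 CPM at 24 h, 230.1 and 253 CPM at 36 h, and 199.7 and 247 CPM at 48 h. Later libraries were at 201 and 248 CPM at 60 h, 213 and 209.8 CPM at 72 h, and 216 and 227 CPM at 84 h. Both of its highest libraries, 415 CPM in replicate 1 of 2iL 48 h and 424 CPM in replicate 2 of 2i 12 h, are among those that stand apart. Against 0 h Dnmt1 was called at 1 of 14 times, 96 h of the 2iL course (-0.56 ± 0.19, adjusted p = 0.020). This call was lost without replicate 2 of 2iL 96 h (-0.42, adjusted p = 0.17), replicate 1 of 2iL 0 h (0.079) or replicate 2 of 2iL 0 h (0.076), by DESeq2 (0.072), with RLE size factors (0.055) and when the 2iL libraries were fitted by themselves (0.059). It was also called at 2i 12 h without replicate 1 of 2i 12 h (0.71, adjusted p = 0.048) and at 2iL 48 h without replicate 2 of 2iL 48 h (0.54, adjusted p = 0.043), that is, when a library that stands apart was the only one of its group. With the 2i libraries fitted by themselves the value at 12 h was 0.51 (adjusted p = 0.0086).

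Uhrf1 rose early in 2i and fell late in 2iL, and its late values in 2i were not called. In the 2i course it was at 123 and 109 CPM at 0 h, 206 and 186 CPM at 12 h, 184 and 153 CPM at 24 h, 141 and 164 CPM at 36 h, and 115 and 121 CPM at 48 h. It then stood at 83.9 and 94.2 CPM at 60 h, 88.9 and 81.6 CPM at 72 h, and 74.2 and 92.4 CPM at 84 h. The log2 fold change over 0 h was 0.75 ± 0.18 at 12 h (adjusted p = 0.0061) and 0.53 ± 0.18 at 24 h (adjusted p = 0.038). The call at 12 h was lost without replicate 2 of 2i 0 h (adjusted p = 0.078), replicate 1 of 2i 12 h (0.069) and when scaled to total counts (0.44, adjusted p = 0.093), and that at 24 h without any 1 of the 4 libraries compared (adjusted p = 0.055 to 0.29) and by DESeq2 (0.063). At 72 h it was -0.45 (adjusted p = 0.080) and at 84 h -0.48 (0.051), and both were called lower when the 2i libraries were fitted by themselves (0.041 and 0.023) and without the libraries that stand apart (0.025 and 0.013). In the 2iL course it was at 181 and 152 CPM at 0 h, 199 and 178 CPM at 24 h, 185 CPM at 36 h, and 229 and 159 CPM at 48 h. Later libraries were at 136 and 120.1 CPM at 60 h, 97.2 and 116 CPM at 72 h, 94.5 and 124 CPM at 84 h, and 65.9 and 70.5 CPM at 96 h. Against 0 h it was lower at 72 h (-0.65 ± 0.18, adjusted p = 0.0063), 84 h (-0.61 ± 0.18, adjusted p = 0.0091) and 96 h (-1.28 ± 0.19, adjusted p = 1.9e-06). Without replicate 1 of 2iL 0 h the calls at 72 h (adjusted p = 0.097) and 84 h (0.12) were lost, as they were without replicate 1 of 2iL 72 h (0.099) and without replicate 1 of 2iL 84 h (0.12), and that at 96 h was lost in no setting run.

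Over all 7 times jointly all 5 writers were called in each course, beside 56.5% of the tested genes in 2iL and 52.2% in 2i. The joint call of Dnmt1 (adjusted p = 0.015 in 2iL and 0.019 in 2i) was less firm. In 2iL it was lost without replicate 2 of 2iL 96 h and when the 2iL libraries were fitted by themselves (0.093). In 2i the joint call was lost without replicate 2 of 2i 12 h and without the 4 libraries that stand apart. It was also lost there with all 32 libraries (0.053) and when scaled to total counts (0.88). That of Uhrf1 (3.5e-07 in 2iL and 1.4e-06 in 2i) was kept in every setting run. Between libraries the ratio of Uhrf1 to Dnmt1 counts, which needs no scaling of the library, was 0.645 and 0.635 at 24 h of the 2iL course, against 0.620 and 0.532 at 0 h, and reached 0.304 and 0.400 at 96 h. In the 2i course it was 0.708 and 0.568 at 24 h, against 0.460 and 0.429 at 0 h, and 0.343 and 0.408 at 84 h. The ratio of the 2 maintenance genes was thus lower at the end of each course than at its start, with 1 value per library and no test. In 2i the margin was small, with 0.429 and 0.408 in the nearest libraries of 0 and 84 h. The 2 libraries of 2i 12 h, of which replicate 2 stands apart, were at 0.692 and 0.438.

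Set against each other within a library, the de novo and maintenance groups moved apart and together again. The measure is the mean log2 CPM of Dnmt3a, Dnmt3b and Dnmt3l minus that of Dnmt1 and Uhrf1, read only as a change between libraries. In the 2iL course it was -2.88 and -2.69 at 0 h, 0.49 and 0.40 at 24 h, 1.36 at 36 h, 1.29 and 1.94 at 48 h, 2.01 and 2.07 at 60 h, 1.70 and 1.46 at 72 h, 0.82 and 0.27 at 84 h, and -0.12 and 0.46 at 96 h. In the 2i course it was 0.21 and 0.31 at 0 h, 1.20 and 0.87 at 12 h, 2.09 and 2.12 at 24 h, 1.78 and 1.63 at 36 h, 1.16 and 0.85 at 48 h, 0.30 and 0.16 at 60 h, -1.01 and -0.87 at 72 h, and -1.74 and -1.83 at 84 h. The highest values of the 2 courses were about equal and lay 36 h apart, at 60 h of 2iL and 24 h of 2i. Without Dnmt3l the highest group means were 2.68 at 60 h of 2iL and 2.50 at 36 h of 2i, and from summed CPM 2.93 at 72 h of 2iL and 2.83 at 36 h of 2i, so the gap depends on the measure. The 2iL course ended above its start and the 2i course below it. Without Dnmt3l the measure at 72 h of 2i was 0.59, against 0.47 at 0 h, so the fall below the start at that time rests on Dnmt3l.

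**Figure D3:**
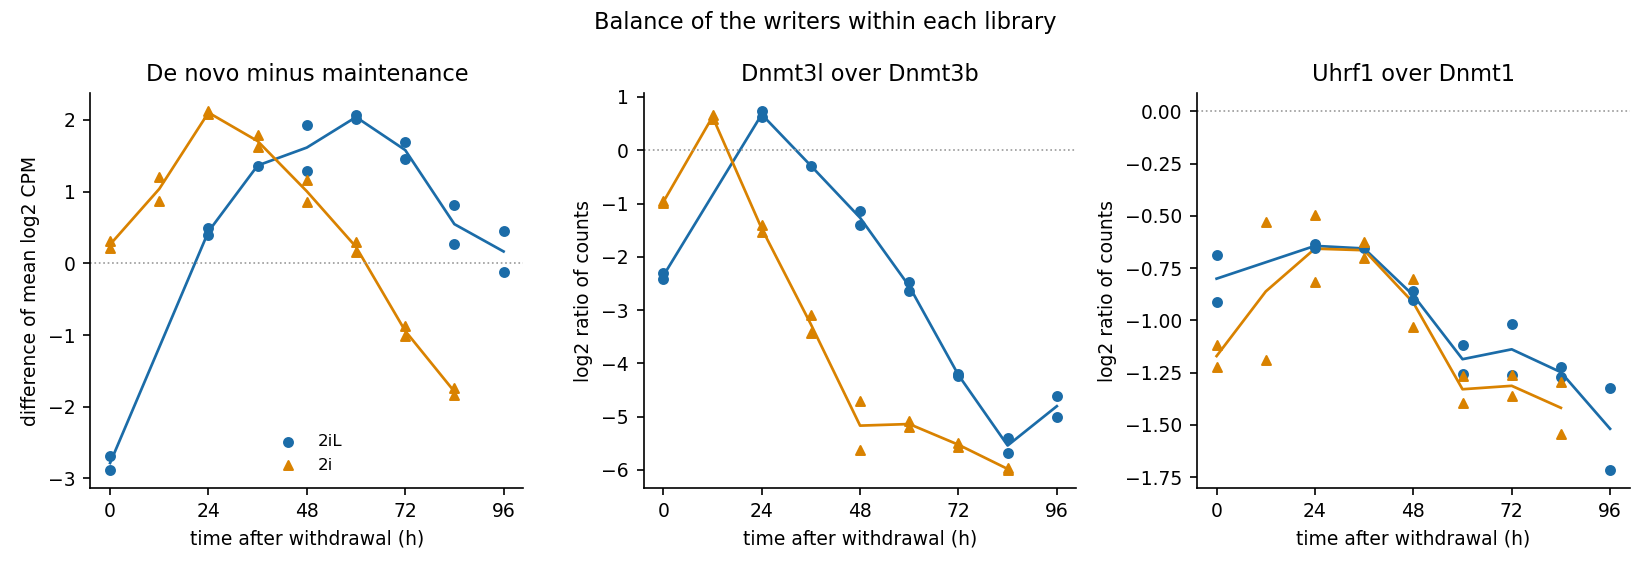
Balance of the writers per library against time after withdrawal, with the 2iL course as circles and the 2i course as triangles and lines through group means. The left panel is mean log2 CPM of the de novo genes minus that of the maintenance genes (2.01 and 2.07 at 2iL 60 h, 2.09 and 2.12 at 2i 24 h), the middle panel the log2 ratio of Dnmt3l to Dnmt3b counts and the right panel that of Uhrf1 to Dnmt1 counts.

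The make-up of the de novo group also turned over. The ratio of Dnmt3l to Dnmt3b counts was 1.53 and 1.66 at 24 h of 2iL, against 0.188 and 0.203 at 0 h. It was 0.0194 and 0.0238 at 84 h. In the 2i course it was 1.51 and 1.59 at 12 h, against 0.503 and 0.517 at 0 h, and 0.0156 and 0.0160 at 84 h. The first sampled time after withdrawal was in each course the one with the most Dnmt3l per Dnmt3b. The ratio of Dnmt3a to Dnmt3b had its lowest group mean at 84 h in 2iL, with 0.213 and 0.258 against 0.552 and 0.601 at 0 h. In 2i the lowest was at 48 h, with 0.172 and 0.166 against 0.649 and 0.601 at 0 h, and it was back at 0.598 and 0.660 by 84 h. Counts of 3' ends are set here against counts of another gene, so only the change of a ratio is read.

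At the same time after withdrawal the 2 courses held different amounts of the de novo genes, and the sign of the difference changed with time for Dnmt3a and Dnmt3b. At 24 h Dnmt3a was at 162 and 111 CPM in 2iL, against 906 and 752 CPM in 2i (-2.59 ± 0.18, adjusted p = 1.4e-11), and Dnmt3b at 413 and 372 CPM in 2iL, against 1599.8 and 1565 CPM in 2i (-2.01 ± 0.16). These were 2 of 5 writers, beside 10.6% of the tested genes. Dnmt3l at 24 h was at 633 and 616 CPM in 2iL, against 554 and 589 CPM in 2i, a log2 difference of 0.13 ± 0.17 that was not called (adjusted p = 0.72). At 36 h 3 writers were called (7.33% of tested genes), with Dnmt3a (-0.71 ± 0.21) and Dnmt3b (-1.24 ± 0.20) lower and Dnmt3l higher (1.72 ± 0.20) in 2iL. The call of Dnmt3a at 36 h was lost without replicate 2 of 2i 36 h (-0.48, adjusted p = 0.30) and with no filter on low counts (0.055). At 60 h 4 writers were called (16.3% of tested genes), and at 72 h (12.2%) and 84 h (14.6%) 3 were, with all 3 de novo genes higher in 2iL at each of these times. At 84 h Dnmt3l was at 30.6 and 30.1 CPM in 2iL, against 2.52 and 2.67 CPM in 2i (3.51 ± 0.37, adjusted p = 3.0e-08). Dnmt3b was at 1582 and 1263 CPM in 2iL, against 161 and 167 CPM in 2i (3.12 ± 0.17, adjusted p = 4.3e-14).

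At 48 h all 5 writers were called, beside 17.3% of the tested genes, but not all on firm ground. Dnmt3a (1.18 ± 0.17) and Dnmt3l (3.27 ± 0.20) were higher in 2iL and kept the call in every setting run. Dnmt3b was lower (-0.60 ± 0.15, adjusted p = 0.0068), a call that was lost without replicate 1 of 2iL 48 h (-0.46, adjusted p = 0.13) or replicate 2 of 2i 48 h (-0.49, adjusted p = 0.10). Dnmt1 was at 415 and 297 CPM in 2iL, against 199.7 and 247 CPM in 2i (0.67 ± 0.19, adjusted p = 0.014), and Uhrf1 at 229 and 159 CPM in 2iL, against 115 and 121 CPM in 2i (0.72 ± 0.18, adjusted p = 0.0052). Without replicate 1 of 2iL 48 h these differences were 0.40 (adjusted p = 0.25) and 0.43 (0.19). Without replicate 1 of 2i 48 h the calls of Dnmt1 (adjusted p = 0.17) and Uhrf1 (0.058) were lost as well, and with the 4 libraries that stand apart left out the values were 0.39 (0.083) and 0.42 (0.083). Uhrf1 was also called higher in 2iL at 60 h (0.53 ± 0.18, adjusted p = 0.047), a call that was lost without any 1 of the 4 libraries compared (adjusted p = 0.084 to 0.28), by DESeq2 (0.12) and with RLE size factors (0.077). Dnmt1 at 60 h differed by 0.37 (interval -0.01 to 0.76) and was not called (adjusted p = 0.19). It stayed so in 11 of 12 alternatives. Without the 4 libraries that stand apart it was called higher in 2iL (0.36, adjusted p = 0.032). At the remaining shared times the interval of the difference was -0.24 to 0.55 (24 h), -0.20 to 0.74 (36 h), -0.23 to 0.55 (72 h) and -0.16 to 0.62 (84 h) for Dnmt1 on the log2 scale.

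**Figure D4:**
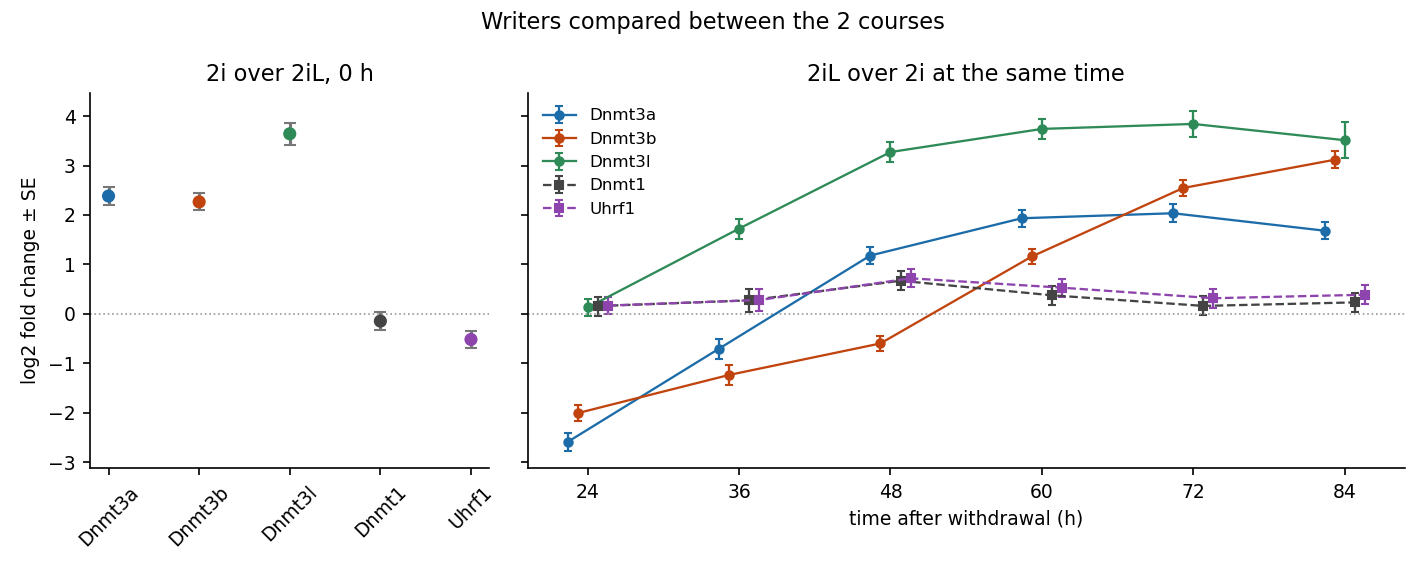
Log2 fold change of each writer with its standard error. The left panel is 2i over 2iL at 0 h, where Dnmt3l is at 3.64, Dnmt3a at 2.38 and Dnmt3b at 2.26, and the right panel is 2iL over 2i at the 6 shared times (points set slightly apart for sight), where Dnmt3a and Dnmt3b cross 0 between 36 and 60 h and Dnmt1 and Uhrf1 (dashed) stay at or under 0.72.

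The change from 0 h itself differed between the courses for the de novo genes. Tested jointly over the 6 shared times, the change in 2iL minus the change in 2i was called for Dnmt3b (adjusted p = 9.3e-18), Dnmt3l (5.1e-17) and Dnmt3a (2.0e-16), beside 22.5% of the tested genes, and not for Dnmt1 (0.61) or Uhrf1 (0.59). Each such difference includes the 0 h difference of 2i over 2iL, 3.64 for Dnmt3l, 2.38 for Dnmt3a and 2.26 for Dnmt3b. At 24 h the difference of changes was called for Dnmt3l (3.77 ± 0.29, adjusted p = 6.7e-10), 1 of 5 writers beside 3.07% of the tested genes. Most of this value is the 0 h difference, since the levels of Dnmt3l at 24 h differed by 0.13 and were not called. At 24 h the difference of changes was -0.21 for Dnmt3a (95% interval -0.74 to 0.32) and 0.25 for Dnmt3b (-0.22 to 0.73), and neither was called. At 72 h it was called for all 3 de novo genes (9.76% of tested genes), with 4.42 ± 0.26 for Dnmt3a, 4.81 ± 0.24 for Dnmt3b and 7.49 ± 0.35 for Dnmt3l. For Dnmt1 at 72 h it was 0.01, with an interval of -0.54 to 0.56, and for Uhrf1 -0.20 (-0.74 to 0.33).

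Among 16 partners and regulators of the writers, all tested, 2 were higher and 0 lower in 2i than in 2iL at 0 h, with a median log2 difference of -0.01 (0.01 over all tested genes), where 3.75% of all tested genes were higher and 4.24% lower. These were Uhrf2, the relative of Uhrf1, at 85.7 CPM in 2i and 35.8 CPM in 2iL (1.26 ± 0.26), and Nsd2, which methylates histone H3, at 70.6 CPM in 2i and 38.1 CPM in 2iL (0.89 ± 0.20), of which 1 was called without replicate 2 of 2iL 0 h or replicate 1 of 2i 0 h. At 12 h of 2i 4 rose and 3 fell (5.42% and 5.36% of all tested genes), and at 24 h of 2iL 5 rose and 2 fell (5.65% and 5.92%). Hells, a chromatin remodeller needed for DNA methylation, rose in both (0.71 ± 0.16 at 2i 12 h and 0.92 ± 0.16 at 2iL 24 h), as did Zfp57 (1.49 ± 0.29 and 1.07 ± 0.30), a zinc finger protein that guards imprints, and its corepressor Trim28 (0.55 ± 0.14 and 0.65 ± 0.14). Single libraries moved these counts: at 2i 12 h 1 gene rose without replicate 2 of 2i 0 h and 2 rose without replicate 1 of 2i 12 h. At 2iL 24 h 3 rose without replicate 1 of 2iL 0 h and 2 rose without replicate 2 of 2iL 0 h or replicate 1 of 2iL 24 h, and 1 fell without replicate 1 of 2iL 0 h or either 24 h library. Scaled to total counts, 1 rose at 2i 12 h and 2 rose at 2iL 24 h. Dppa3, which keeps UHRF1 off chromatin in mouse cells, fell in both, to 7.08 CPM at 2i 12 h, against 43.5 CPM at 2i 0 h, and to 3.87 CPM at 2iL 24 h, against 37.9 CPM at 2iL 0 h. At 72 h 2 rose and 9 fell in 2i (median -0.54), where 14.1% of all tested genes rose and 14.1% fell, and 2 rose and 6 fell in 2iL (median -0.12), where 14.6% rose and 14.1% fell. The 2 that rose became 1 without replicate 2 of 2i 0 h or replicate 1 of 2i 72 h in 2i, and without replicate 2 of 2iL 0 h or replicate 1 of 2iL 72 h in 2iL. Usp7, a deubiquitinase that binds DNMT1, fell at 72 h of both courses (-1.15 ± 0.14 in 2i and -0.72 ± 0.14 in 2iL), and Nsd1, a relative of Nsd2, fell too (-1.14 ± 0.16 and -0.40 ± 0.15).

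The TET enzymes, which oxidise methylated cytosine and so oppose the writers, moved in different directions. Tet2 was at 15.3 CPM in 2i and 48.2 CPM in 2iL at 0 h (-1.67 ± 0.30), and was the 1 of 4 genes of the list with Tdg that was called, beside 4.24% of all tested genes lower in 2i. Tet1 and Tet2 rose early, at 12 h of 2i (0.87 ± 0.18 and 2.09 ± 0.31) and at 24 h of 2iL (0.65 ± 0.18 and 0.96 ± 0.26). Of all tested genes 5.42% rose at 12 h of 2i and 5.65% at 24 h of 2iL. The 2 calls at 2iL 24 h became 0 without replicate 1 of 2iL 0 h, replicate 2 of 2iL 0 h or replicate 2 of 2iL 24 h and when scaled to total counts, and 1 without replicate 1 of 2iL 24 h. At 72 h Tet1 had fallen below 0 h in both courses, to 59.8 CPM in 2i, against 263 CPM at 0 h, and to 170.5 CPM in 2iL, against 375 CPM at 0 h. Tet3 had risen by then, to 32.3 CPM in 2i, against 2.91 CPM at 0 h (3.52 ± 0.43), and to 29.5 CPM in 2iL, against 4.90 CPM at 0 h (2.56 ± 0.37). Of 8 readers of methylated DNA 1 was lower and 0 higher in 2i at 0 h (Zbtb38, -0.97 ± 0.26), and 2 were lower and 0 higher at 72 h of each course. Of all tested genes 4.24% were lower at 0 h and 14.1% at 72 h of each course. Zbtb38 was among both pairs (-1.11 ± 0.32 in 2i and -1.54 ± 0.27 in 2iL). The call at 0 h was lost without replicate 1 of 2iL 0 h or replicate 2 of 2i 0 h. At 72 h of 2i both calls were lost without replicate 1 of 2i 0 h or replicate 1 of 2i 72 h, and at 72 h of 2iL 1 was left without replicate 1 of 2iL 0 h or replicate 1 of 2iL 72 h.

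Genes that supply the methyl group were 11 members of the methionine and folate cycles. In 2i against 2iL at 0 h 1 was lower (Shmt2, -0.81 ± 0.21), beside 4.24% of all tested genes. At 72 h 5 fell and 0 rose in 2i (median -0.67) and 2 fell and 0 rose in 2iL (median 0.04), where 14.1% of all tested genes fell in each course, so that 2 of 11 is near that share. Shmt1 and Shmt2, the serine hydroxymethyltransferases, fell at 72 h in both courses (Shmt1 -1.45 ± 0.21 in 2i and -0.99 ± 0.20 in 2iL). The call at 0 h was lost without replicate 1 of 2iL 0 h or replicate 1 of 2i 0 h. At 72 h of 2i 3 genes fell without replicate 1 of 2i 0 h, 1 fell without replicate 2 of 2i 72 h, and 1 fell when scaled to total counts. At 72 h of 2iL 4 fell and 2 rose without the libraries that stand apart. Of 20 S phase genes 2 rose at 12 h of 2i (Mcm5 and Ccne1), beside 5.42% of all tested genes, calls that were both lost without replicate 1 of 2i 0 h, replicate 2 of 2i 0 h or replicate 1 of 2i 12 h. At 96 h of 2iL, shown because Dnmt1 and Uhrf1 were both called lower than at 0 h there, 11 of the 20 fell and 0 rose (median -0.63). Of all tested genes 20.1% fell and 19.4% rose. The count of S phase genes at 96 h was not run under the alternatives, and the call of Dnmt1 there was kept in 6 of 12 of them. The part of this in the 2 maintenance genes was not tested.

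Of 14 germline genes with promoters known to be silenced by methylation 9 were tested, and they did not move as a group. At 0 h 3 were higher in 2i (Ddx4, Taf7l and Tdrd1) and 1 was lower (Dazl, 5.43 CPM in 2i and 21.8 CPM in 2iL), beside 3.75% higher and 4.24% lower of all tested genes. Tdrd1 was at 0 in both 2iL libraries. Tex19.1 rose with the early wave, to 225 CPM at 12 h of 2i, against 87.3 CPM at 0 h (1.36 ± 0.21), and to 211 CPM at 24 h of 2iL, against 63.7 CPM at 0 h (1.73 ± 0.22). At 72 h 0 rose and 3 fell in 2i, where 14.1% of all tested genes rose and 14.1% fell, and 4 rose and 2 fell in 2iL, where 14.6% rose and 14.1% fell. Dazl was among the genes that fell in both, to 4.38 CPM at 72 h of 2iL, against 21.8 CPM at 0 h, and to 0 counts at 72 h of 2i, against 5.43 CPM at 0 h. The other DNMT family genes of the mouse, Dnmt3c and Trdmt1, had 12 and 122 counts over all 31 libraries and were not tested.

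Over the 31 libraries, which share course and time, Dnmt3a followed Dnmt3b most closely among the writers (Pearson r = 0.898 of log2 CPM), and Dnmt1 followed Uhrf1 (0.804). Dnmt3l followed Uhrf1 (0.752) and Dnmt3a (0.672) more than Dnmt3b (0.480). Among 6203 genes with a mean log2 CPM of at least 4, the patterns most like that of Dnmt3a were those of Map7d3 (0.964), Lyar (0.930) and Cgnl1 (0.921). Epcam (0.968), Snrpn (0.964) and Esrp1 (0.953) were closest to Dnmt3b, and Ppp2r2d (0.957), Jarid2 (0.944) and Dpf1 (0.944) to Dnmt3l. The genes closest to Uhrf1 were Msh6, Atp5g1 and Trim28 (all 0.927), and those closest to Dnmt1 were Casp8ap2 (0.893), Immt (0.890) and Aatf (0.879). These values describe the libraries and carry no test.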

How the data were processed

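RNA of 32 libraries was measured with a 3' digital gene expression kit. Per the submitters' processing notes, reads were handled with bcl2fastq, STAR 2.6.0a and HTSeq on mm10; the annotation release is not given in the sources used here. The authors deposited whole-number counts per gene, which were tested as deposited, and CPM values, which equalled the counts scaled to library totals (largest difference 4.66e-10) and served only as a check; the 5 HTSeq summary lines were left out of totals. Counts were fitted with edgeR 4.0.16 (R 4.3.3, limma 3.58.1; quasi-likelihood test, TMM, filterByExpr) over 31 libraries with 16 group means, 15 residual degrees of freedom and Benjamini-Hochberg adjustment over 12556 genes (threshold 0.05). Standard errors are the log2 fold change divided by the square root of F, and intervals are at 95%. Log2 CPM used a prior count of 2. In simulated counts for 2iL 72 h against 0 h over 11465 genes, 49 of 100 changes of 1 log2 unit and 99 of 100 of 2 units were called. Alternatives were DESeq2 1.42.0, RLE and total-count scaling, no filter, other sets of libraries, the replicate block and each library left out. The 5 writers are named in every comparison; of the other lists, genes are named from those called at 0 h, 12 and 72 h of 2i, or 24 and 72 h of 2iL, and the 3 genes most correlated with each writer are named. Writers and lists were chosen with earlier results of these data known.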

Additional observations from a re-analysis of the deposited data

Results flagged for a closer look

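The change from 0 h differed between the 2iL and 2i courses by a direct test for the de novo genes. Over the 6 shared times jointly F was 165.49 for Dnmt3b, 142.97 for Dnmt3l and 124.78 for Dnmt3a. At 24 h the change in 2iL minus the change in 2i was 3.77 on the log2 scale for Dnmt3l. At 72 h it was 4.42 for Dnmt3a, 4.81 for Dnmt3b and 7.49 for Dnmt3l. These values include the 0 h difference of the courses. For Dnmt3l that was 3.64 (2i over 2iL), while its levels at 24 h differed by 0.13 and were not called.

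In the library 2iL 36 h replicate 2, which was left out, Dnmt3b had 5 of 7298 counts, or 685 CPM of total counts (exact binomial interval 222 to 1598). The highest 2iL 0 h library was at 68.5 CPM on that scale.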

How the results depend on the processing

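No called result for a single writer changed sign under an alternative, while results that were not called did, such as Dnmt1 at 2iL 24 against 0 h (-0.19 to 0.10). Of 500 pairs of a result and an alternative per gene, a call was lost in 16 and gained in 5 for Dnmt1, 17 and 5 for Dnmt3a, 10 and 4 for Dnmt3b, 13 and 6 for Dnmt3l and 38 and 12 for Uhrf1; the rest include results that were not called and stayed so, which are most of those of Dnmt1. Counts of writers called moved as follows. With all 32 libraries or with the course alone, 1 was called at 2iL 36 against 24 h (2 as reported) and 1 at 2iL 72 against 60 h (2 as reported). At 2iL 60 against 48 h (1 as reported) it was 0 with all 32 libraries, total counts or the course alone, and 2 by DESeq2. With total counts it was 2 at 2i 12 h (4 as reported) and 1 at 2i 72 h (2 as reported), against 0 h. Without a filter it was 2 at 2iL 84 against 72 h (1 as reported). At 2iL 48 against 36 h (1 as reported) it was 0 with the course alone and 2 without the 4 libraries that stand apart. In both of these settings it was 4 at 2i 36 against 0 h (2 as reported) and 2 at 2i 36 against 24 h (1 as reported). With the course alone it was 4 at 2i 24 against 12 h (2 as reported). For 2iL against 2i at 48 h it was 2 with those groups alone and 3 without the 4 libraries (5 as reported).

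Leaving out single libraries gave 3 to 5 writers called at 2iL 96 against 0 h, 2 to 5 at 2iL against 2i at 48 h, 0 to 3 at 2iL 60 against 48 h, 1 to 3 at 2i 72 against 60 h and 0 to 1 at 2i 84 against 72 h. It gave 1 to 2 at 2iL 36 against 24 h, 72 against 60 h and 84 against 72 h, and at 2i 72 against 0 h, 48 against 36 h and 60 against 48 h. Peaks moved to between 48 and 60 h for Dnmt3a, 24 and 36 h for Dnmt3l, 48 and 84 h for Dnmt1 and 24 and 48 h for Uhrf1 in 2iL, and between 36 and 48 h for Dnmt3b in 2i. With total counts the peak of Dnmt3b in 2i was at 48 h, that of Uhrf1 at 36 h in 2iL and at 24 h in 2i, and without the 4 libraries that of Uhrf1 in 2iL was at 24 h. De novo minus maintenance, 2i minus 2iL at 0 h, was 2.81 from summed CPM and 2.63 without Dnmt3l (3.05 as reported). At 72 minus 0 h it was 4.95 and 4.81 in 2iL (4.37 as reported), and -0.13 and 0.12 in 2i (-1.20 as reported), so that the sign in 2i turned without Dnmt3l. The cause of the other moves was not tested. Leaving out 2iL 36 h replicate 1 was not run, since no library would be left.

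No common pairing by replicate number was seen: over 105 pairs of groups the correlation of replicate differences was -0.385 to 0.422 (median 0.006), with 10 pairs over 0.1. The correlations run over all tested genes, where counting noise can pull them towards 0, so a pairing is not excluded. The replicate block changed 1 call of a writer, Uhrf1 in 2iL against 2i at 60 h (0.53, adjusted p = 0.052). Over all tested genes 1004 were called at 0 h, against 725 by DESeq2, 1681 without the 4 libraries and 1984 with those groups alone. With 2 libraries a group, changes near 1 log2 unit can be missed. In the simulated counts 49 of 100 such changes were called. Few genes were changed there, while 28.8% of the tested genes were called at 2iL 72 h against 0 h. The simulated share therefore does not carry over to the writers.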
